A study of Homo sapiens with 32 samples.

Results

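RORA and 9 repressors of the circadian clock were followed through hypoxia and mTOR inhibition in 2 human breast cell lines. The 9 repressors are BHLHE40, BHLHE41, PER1, PER2, PER3, CRY1, CRY2, NR1D1 and NR1D2. Each gene was taken from the count tables by its symbol and its protein-coding class, which gave 10 of the 19815 protein-coding genes and of the 60554 genes of all classes. All 10 passed the filter on low counts in both lines. The RNA-Seq data came from MCF10A, an immortalised and non-tumorigenic line of mammary epithelium, and MDA-MB-231, which derives from a triple-negative breast carcinoma. Cells were kept in normoxia (N), in 0.5% O2 for 24 hours (H), in normoxia with 2.5 µM PP242 for 3 hours (NPP) or in hypoxia with PP242 (HPP). PP242 is an ATP-competitive inhibitor of the mTOR kinase and acts on mTORC1 and mTORC2. The mRNA of the whole lysate (T, total RNA) and that of the polysomal gradient fractions (P) were sequenced from 2 biological replicates of each condition. This gave 8 groups of 2 libraries in each line, 32 libraries in all, with 18340900 to 46032300 counts each. The medium of MCF10A held EGF, hydrocortisone, cholera toxin and insulin besides serum, and that of MDA-MB-231 did not, so medium and line cannot be told apart. Every library is bulk RNA, in which fewer cells of a kind and less RNA per cell cannot be told apart. Each condition was collected once, so the values hold no course over the circadian day.

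In the clock of mammalian cells, CLOCK or NPAS2 pairs with ARNTL and activates genes through E-box sequences. PER and CRY proteins bind that pair and block it, BHLHE40 and BHLHE41 compete for the E-boxes, and NR1D1 and NR1D2 repress ARNTL through elements where RORA activates it. Hypoxia-inducible factors (HIFs) belong to the same protein family as CLOCK and ARNTL and bind a related core sequence, and BHLHE40, BHLHE41 and RORA are known to respond to them.

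The bases just before the start sites of BHLHE40, BHLHE41 and RORA are shown because these 3 genes carried the largest hypoxic changes below. They are RefSeq promoter windows of GRCh38.p14, 250 bases up to the base before the start, written 5′ to 3′ on the strand of the gene. Capitals mark the HIF core, ACGTG or GCGTG read on both strands, and places that overlap are merged. The window of BHLHE40 is chr3:4979187-4979436 on the plus strand, that of BHLHE41 is chr12:26125038-26125287 on the minus strand, and that of RORA is chr15:60627531-60627780 on the minus strand.
BHLHE40: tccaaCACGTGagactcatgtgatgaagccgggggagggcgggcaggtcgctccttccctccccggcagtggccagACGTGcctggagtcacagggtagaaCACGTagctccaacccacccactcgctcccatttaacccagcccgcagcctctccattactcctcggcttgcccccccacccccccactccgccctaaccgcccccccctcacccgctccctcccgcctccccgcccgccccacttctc
BHLHE41: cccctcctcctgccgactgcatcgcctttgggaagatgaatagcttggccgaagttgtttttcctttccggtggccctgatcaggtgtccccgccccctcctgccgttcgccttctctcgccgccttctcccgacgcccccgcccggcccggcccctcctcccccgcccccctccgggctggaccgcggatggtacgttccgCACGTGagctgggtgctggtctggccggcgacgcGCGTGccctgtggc
RORA: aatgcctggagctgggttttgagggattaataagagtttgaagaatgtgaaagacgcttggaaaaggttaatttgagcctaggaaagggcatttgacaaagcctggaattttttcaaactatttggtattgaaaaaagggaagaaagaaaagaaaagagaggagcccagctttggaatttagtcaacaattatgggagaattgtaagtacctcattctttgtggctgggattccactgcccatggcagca
BHLHE40 held 3 core places, which begin 245, 174 and 149 bases before the start, and BHLHE41 held 2, which begin 48 and 14 bases before it. In each of these 2 windows 1 of the places is also an E-box, CACGTG. RORA held none, and its window lies inside the long gene, at a start that is not the 5′ end of the gene model. The 7 genes not called in hypoxia alone held cores as well, 3 in NR1D1, 2 in PER2 and in CRY1 and 1 in PER1. PER3, CRY2 and NR1D2 have 2 windows each, which held 1 and 2, 0 and 2, and 0 and 3 cores. The number of cores thus did not separate the genes that rose in hypoxia from the others. At least 1 core place was found in 43.2% of 35116 RefSeq promoter windows, at least 2 in 16.2% and an E-box in 6.34%, so a match is common and is a description of the letters only.

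The labelled lines were compared with marker genes before the clock genes were read. Keratins KRT5 and KRT14 ran from 1190.2 to 3268 and from 458 to 4203 CPM, counts-per-million of the scaled library, in the 16 MCF10A libraries, and reached at most 0.284 and 0.610 CPM in MDA-MB-231. KRT6A and KRT17 were also higher in every MCF10A library than in any of MDA-MB-231, but SFN had a median of 140.9 CPM in MCF10A and 145.6 CPM in MDA-MB-231, and LAMB3 was at 224 to 557 CPM in MDA-MB-231. However, E-cadherin (CDH1) and TP63 were at most 0.361 and 0.226 CPM in every library labelled MCF10A, and vimentin (VIM) was at 1691 CPM or more. In all, 2 of the 8 MCF10A markers stayed under 1 CPM in all MCF10A libraries, and their summed level ran from 2076 to 12107 CPM with KRT5 the most abundant, against 353 to 726 CPM in MDA-MB-231. Of the 6 MDA-MB-231 markers, VIM, ZEB1, AXL, CD44 and the collagenase MMP1 were present, and SPARC reached at most 0.796 CPM. SPARC was at 91.7 to 202.7 CPM in MCF10A, which is the reverse of what its place on that list would give. The summed level of the 6 ran from 4765 to 8740.2 CPM in MDA-MB-231 and from 2437 to 10423 CPM in MCF10A, with VIM the most abundant in both, so the lines overlapped. In normoxic total RNA VIM had a log2 difference of 0.22 ± 0.36 between the lines and was not called. MMP1 reached at most 0.203 CPM in MCF10A and was 242 CPM or more in MDA-MB-231. The labels are used here as given. Several markers moved with the treatments. In MCF10A the normoxic and hypoxic libraries were each pooled over the fractions and over PP242. They did not overlap for KRT14 (458 to 1417 and 1669 to 4203 CPM), KRT17 (48.5 to 204 and 237 to 1034) and KRT6A (16.4 to 45.98 and 97.6 to 250.04). These 3 were called up in HPP in both fractions. VIM and CD44 were called up in HPP in total RNA of both lines, by a log2FC of 1.73 and 1.14 in MCF10A and of 0.75 and 0.73 in MDA-MB-231. LAMB3 was called up in HPP in both lines and fractions, and MMP1 in H and HPP in both fractions of MDA-MB-231. Of all tested genes 14.9% and 22.2% were called in HPP in T and P of MCF10A, and 13.2% and 19.4% in MDA-MB-231. In H of MDA-MB-231 the shares were 1.27% and 2.29%. The part of these marker levels in the results was not tested. Oxygen labels were checked by the HIF target CA9, which was 522 CPM or more in the hypoxic and at most 26.9 CPM in the normoxic MCF10A libraries, and 13.03 or more and at most 1.02 CPM in MDA-MB-231. NDRG1 and ANKRD37, also chosen as checks, did not overlap between hypoxic and normoxic libraries in either line. VEGFA, the last check, did overlap in MDA-MB-231 (228 to 433 and 153 to 301 CPM) and not in MCF10A. It was not called in H in either line or fraction. In NPP NDRG1 was called up in both fractions of MCF10A, and ANKRD37 in both of MDA-MB-231.

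Some MCF10A libraries of total RNA stood apart. The SD of the log2 difference between replicates was 1.19 in NPP and 0.886 in HPP, against 0.367 to 0.796 in the other groups of both lines. In NPP replicate 2 ribosomal protein genes took 17.3% of the counts and in replicate 1 they took 9.70%. CLOCK was at 30.6 and 5.19 CPM in NPP and at 23.5 and 5.17 CPM in HPP, lower in replicate 2 both times. The calls of the 10 genes in MCF10A were 8 in total and 9 in polysomal RNA. They were 11 and 11 without NPP replicate 2 and 11 and 10 without NPP replicate 1, so the rise was not particular to replicate 2. Without HPP replicate 1 they were 6 and 10, and without HPP replicate 2 they were 7 and 10.

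Under hypoxia alone, BHLHE40 and BHLHE41 rose in MCF10A, and RORA and BHLHE40 rose in MDA-MB-231, where BHLHE41 rose too in polysomal RNA. No PER, CRY or NR1D gene passed the test in H. A gene was called at an adjusted p under 0.05 in edgeR's quasi-likelihood test over all tested protein-coding genes, with Benjamini-Hochberg adjustment. This fit of the 16 libraries of a line, with TMM scaling, the filter on low counts and no replicate block, is named the main fit. In MCF10A 2 of 10 genes were called in T and 2 of 10 in P, beside 1.54% and 1.49% of the 13124 genes tested. In MDA-MB-231 the counts were 2 in T and 3 in P, beside 1.27% and 2.29% of 13510. In T the 10 genes had a median log2 fold change (log2FC) of 0.43 in MCF10A, beside -0.03 over all tested genes, and of 0.26 in MDA-MB-231, beside -0.02. With 2 libraries against 2, these p-values rest on a spread pooled over the 8 groups of a line.

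PP242 in normoxia lowered BHLHE40 in MCF10A and moved no other gene of the 10 past the threshold. This was 1 of 10 genes in T and 1 in P, beside 0.648% and 0.823% of all genes. In MDA-MB-231 0 of 10 genes were called in T and 0 in P by the main fit, beside 0.555% and 1.95%, and DESeq2 called none either. An unadjusted p under 0.05 was reached by 5 and 6 of them, BHLHE40 included both times, beside 1385 and 1838 of all 13510 genes.

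Hypoxia with PP242 moved the most genes. RORA, BHLHE40 and BHLHE41 rose and PER3 fell in both lines and both fractions, which are 4 of the 10 genes. In MCF10A 5 of 10 were called in T and 6 in P, beside 14.9% and 22.2% of all genes. In MDA-MB-231 6 were called in T and 6 in P, beside 13.2% and 19.4%. NR1D1 rose besides in MDA-MB-231 and in MCF10A polysomal RNA, PER1 rose in MCF10A polysomal RNA, CRY1 fell in MCF10A total RNA and PER2 fell in MDA-MB-231. CRY2 and NR1D2 were called against N by the main fit in neither line. The H, NPP and HPP comparisons of a fraction share the same 2 N libraries. With a fit of only the libraries compared, calls were lost in MCF10A for BHLHE40 (NPP in T, H in P), BHLHE41 (HPP in T, H in P), PER3 (HPP in T and P), PER1 and NR1D1 (HPP in P), and in MDA-MB-231 for RORA (H in T) and BHLHE41 (H in P). Without TMM scaling they were lost in HPP for PER3 in P of both lines and for BHLHE41 in T and PER2 in P of MDA-MB-231, and with all gene classes tested for NR1D1 in P of MCF10A.

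Other fits also gained calls in HPP. In MCF10A DESeq2 called CRY2 in P (log2FC 0.97, adjusted p = 0.0254) and PER1 and NR1D1 in T (adjusted p = 0.00891 and 0.0193). In MDA-MB-231 NR1D2 in P was called with only the libraries compared, without TMM scaling and without the filter on low counts (adjusted p = 0.0324, 0.0492 and 0.017), at a log2FC of 0.47 to 0.64. Without that filter PER1 was called there in T and P (adjusted p = 0.0157 and 0.0392), and without TMM scaling CRY1 was called in T (adjusted p = 0.0487). In NPP of MDA-MB-231 calls in P were gained for RORA (adjusted p = 0.0473 without TMM scaling and 0.0319 without the filter), BHLHE40 (0.0222 without the filter) and NR1D1 (0.0285 without TMM scaling). In H without the filter BHLHE41 was called in T of MDA-MB-231 (adjusted p = 0.0367).

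**Figure D1:**
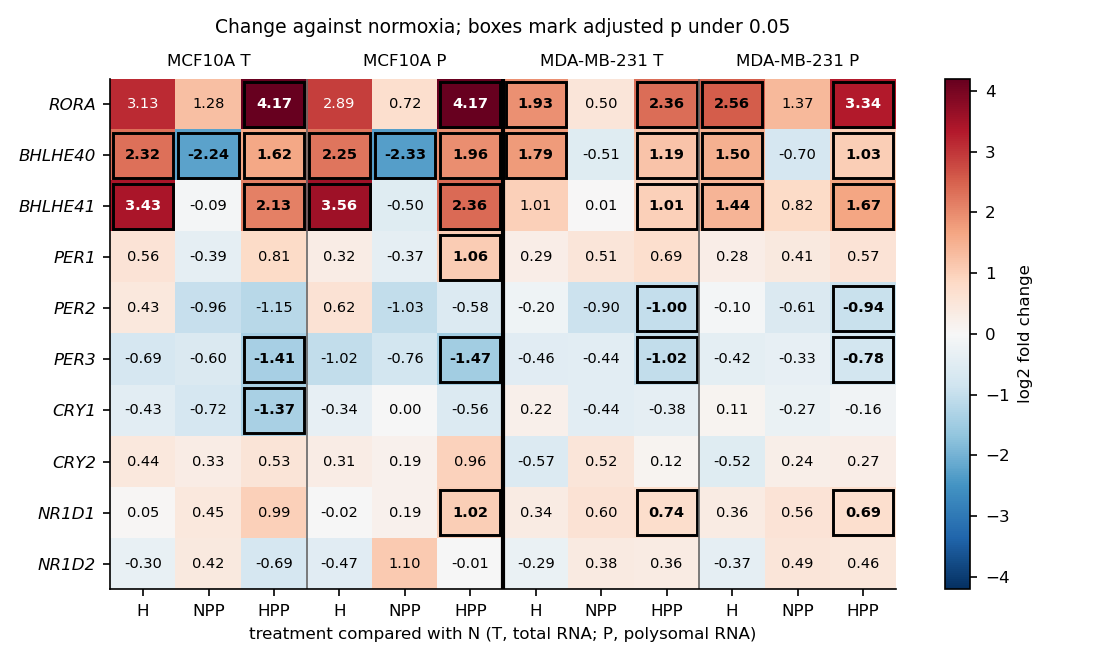
Log2 fold change of each of the 10 genes (rows) in H, NPP and HPP against N (columns), for total (T) and polysomal (P) RNA of both lines; boxes mark an adjusted p under 0.05. The boxes gather in the 3 top rows and in the HPP columns, and the 2 negative boxes outside HPP are BHLHE40 in MCF10A NPP.

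RORA is an orphan nuclear receptor that activates ARNTL and other genes, and lies at chr15:60488284-61229302 on the minus strand of GRCh38 (GENCODE v44). In MCF10A total RNA its 2 libraries were at 0.313 and 0.358 CPM in N, 3.80 and 2.16 in H, 1.37 and 0.209 in NPP, and 8.99 and 3.26 in HPP. In MCF10A polysomal RNA they were at 0.210 and 0.281 CPM in N, 1.88 and 1.86 in H, 0.414 and 0.410 in NPP, and 5.89 and 3.22 in HPP. All hypoxic libraries lay above all normoxic ones, and the NPP libraries of total RNA lay on either side of N. In HPP the log2FC was 4.17 ± 0.75 (SE) in T (adjusted p = 0.00375) and 4.17 ± 0.77 in P (adjusted p = 0.00331). In H it was 3.13 ± 0.73 in T and 2.89 ± 0.75 in P, and the main fit did not call it (adjusted p = 0.0632 and 0.0979). DESeq2 called both of these changes in H, with an adjusted p of 0.000523 and 0.00325. Without the filter on low counts edgeR called both (adjusted p = 0.0197 and 0.0374). With only the libraries compared it called that in T (adjusted p = 0.00466). With the replicate number as a block within each fraction edgeR called both as well (adjusted p = 0.0107 and 0.0168). Leaving out HPP replicate 1 lowered the log2FC of HPP in T to 3.35, leaving out replicate 2 raised it to 4.73, and the call was lost without either N library of total RNA.

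In MDA-MB-231 the same gene was at 0.646 and 0.625 CPM in N, 2.55 and 2.32 in H, 1.04 and 0.766 in NPP, and 3.32 and 3.26 in HPP in total RNA. In polysomal RNA it was at 0.261 and 0.387 CPM in N, 1.60 and 2.32 in H, 0.963 and 0.756 in NPP, and 3.63 and 3.15 in HPP. Every treated library lay above both N libraries of its fraction. RORA rose in H by a log2FC of 1.93 ± 0.31 in T (adjusted p = 0.00527) and 2.56 ± 0.34 in P (adjusted p = 0.000965). In HPP it rose by 2.36 ± 0.31 in T (adjusted p = 0.000326) and 3.34 ± 0.33 in P (adjusted p = 1.45e-05). In NPP the log2FC was 0.50 in T (adjusted p = 0.703) and 1.37 ± 0.35 in P (adjusted p = 0.0682), not past the threshold. The call in H in T was lost without either N library, with a log2FC that ran from 1.85 to 2.04 over all libraries left out. These are low counts, from 5 to 291 reads in MCF10A and from 6 to 132 in MDA-MB-231, and 6 to 18 in the N libraries of both lines. RORA-AS1 shares 564 exon bases with RORA on the other strand, and the library kit does not keep strand. It held 0 to 11 counts in all 32 libraries, with no separation of hypoxic from normoxic ones.

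BHLHE40, also known as DEC1, is a basic helix-loop-helix repressor at chr3:4979437-4985323 on the plus strand. In MCF10A total RNA it was at 18.7 and 20.0 CPM in N, 98.3 and 94.5 in H, 4.78 and 3.39 in NPP, and 68.2 and 51.1 in HPP. Its polysomal libraries were at 17.8 and 23.3 CPM in N, 82.7 and 114 in H, 4.68 and 3.50 in NPP, and 78.8 and 81.5 in HPP. No group overlapped N, and the NPP libraries were the lowest of each fraction. In H the log2FC was 2.32 ± 0.28 in T (adjusted p = 0.00134) and 2.25 ± 0.28 in P (adjusted p = 0.00156), which is 4.98-fold and 4.77-fold. In HPP it was 1.62 ± 0.27 in T (adjusted p = 0.00251) and 1.96 ± 0.28 in P (adjusted p = 0.000776). In NPP it was -2.24 ± 0.28 in T (adjusted p = 0.00652) and -2.33 ± 0.28 in P (adjusted p = 0.00328). The call of H in T was lost without N replicate 1, at a log2FC of 2.26. The NPP fall in T was no longer called without either N library, and that in P without NPP replicate 2, with a range of -2.52 to -2.02 for T and -2.55 to -2.12 for P over all libraries left out.

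In MDA-MB-231 BHLHE40 started at 33.0 and 23.4 CPM in N and was at 106.9 and 88.01 in H, 21.8 and 17.9 in NPP, and 74.2 and 54.8 in HPP of total RNA. In polysomal RNA it was at 35.7 and 28.8 CPM in N, 99.8 and 82.0 in H, 22.4 and 17.3 in NPP, and 73.8 and 58.3 in HPP. By their means the 4 conditions had the order they had in MCF10A, and NPP lay below N with less distance. The log2FC in H was 1.79 ± 0.22 in T (adjusted p = 0.000504) and 1.50 ± 0.22 in P (adjusted p = 0.0025). In HPP it was 1.19 ± 0.22 in T (adjusted p = 0.00357) and 1.03 ± 0.22 in P (adjusted p = 0.00518). In NPP it was -0.51 ± 0.22 in T and -0.70 ± 0.22 in P, which the main fit did not call (adjusted p = 0.435 and 0.154). That in P was called without the filter on low counts (adjusted p = 0.0222) and with a replicate block within each fraction (adjusted p = 0.00367). The calls of HPP in T and of H and HPP in P were lost without N replicate 2, and that of HPP in P also without HPP replicate 1, with a log2FC of 0.85 or more in all of these fits. BHLHE40-AS1 shares 451 exon bases with BHLHE40 on the other strand. It held 0 to 25 counts in MCF10A and 5 to 46 in MDA-MB-231, where its 8 hypoxic libraries held 20 or more and its 8 normoxic ones 12 or fewer. BHLHE40 itself held 81 to 5075 counts in MCF10A and 411 to 3936 in MDA-MB-231.

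BHLHE41, or DEC2, is the paralogue of BHLHE40 at chr12:26120030-26125037 on the minus strand. In MCF10A total RNA it was at 0.183 and 0.337 CPM in N, 3.07 and 2.68 in H, 0.310 and 0.167 in NPP, and 1.51 and 0.806 in HPP. In polysomal RNA it was at 0.244 and 0.220 CPM in N, 2.40 and 3.11 in H, 0.181 and 0.145 in NPP, and 0.888 and 1.51 in HPP. The H libraries were the highest of each fraction, and HPP lay between H and N. Its log2FC in H was 3.43 ± 0.49 in T (adjusted p = 0.00426) and 3.56 ± 0.50 in P (adjusted p = 0.00361). In HPP it was 2.13 ± 0.48 in T (adjusted p = 0.0125) and 2.36 ± 0.49 in P (adjusted p = 0.00621). Without N replicate 1 the log2FC of H in T was 3.08 and not called, and without N replicate 2 it was 3.95. That of HPP in T was 1.69 without HPP replicate 1 and 2.64 without N replicate 2, and its call was lost without either of these or N replicate 1. In P the call of H was lost without N replicate 2 and that of HPP without HPP replicate 2, at a log2FC of 1.93.

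In MDA-MB-231 BHLHE41 was at 1.54 and 1.65 CPM in N, 3.01 and 3.42 in H, 1.84 and 1.35 in NPP, and 3.41 and 2.99 in HPP of total RNA. Its polysomal libraries were at 0.653 and 1.58 CPM in N, 3.09 and 3.14 in H, 1.90 and 2.15 in NPP, and 3.19 and 4.12 in HPP. In total RNA H and HPP overlapped, and the N libraries of polysomal RNA lay far apart. It rose in H in P (log2FC 1.44 ± 0.32, adjusted p = 0.0323) and in HPP in both fractions, by 1.01 ± 0.32 in T (adjusted p = 0.0495) and 1.67 ± 0.32 in P (adjusted p = 0.00277). In H in T the log2FC was 1.01 ± 0.32 (adjusted p = 0.167). The call of HPP in T was kept in 8 of the 16 fits without 1 library, at a log2FC of 0.96 to 1.17. The polysomal values depend on the N libraries. Without N replicate 1 the log2FC in P was 1.02 in H, no longer called, and 1.28 in HPP, and without N replicate 2 they were 2.23 and 2.48. The call of H in P was also lost without either H library. BHLHE41 shares 162 exon bases with SSPN on the other strand. SSPN was at 0.479 to 1.55 CPM in MDA-MB-231 and at most 0.375 CPM in MCF10A, and it was called up in MDA-MB-231 in P in HPP (log2FC 1.03, adjusted p = 0.0494).

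**Figure D2:**
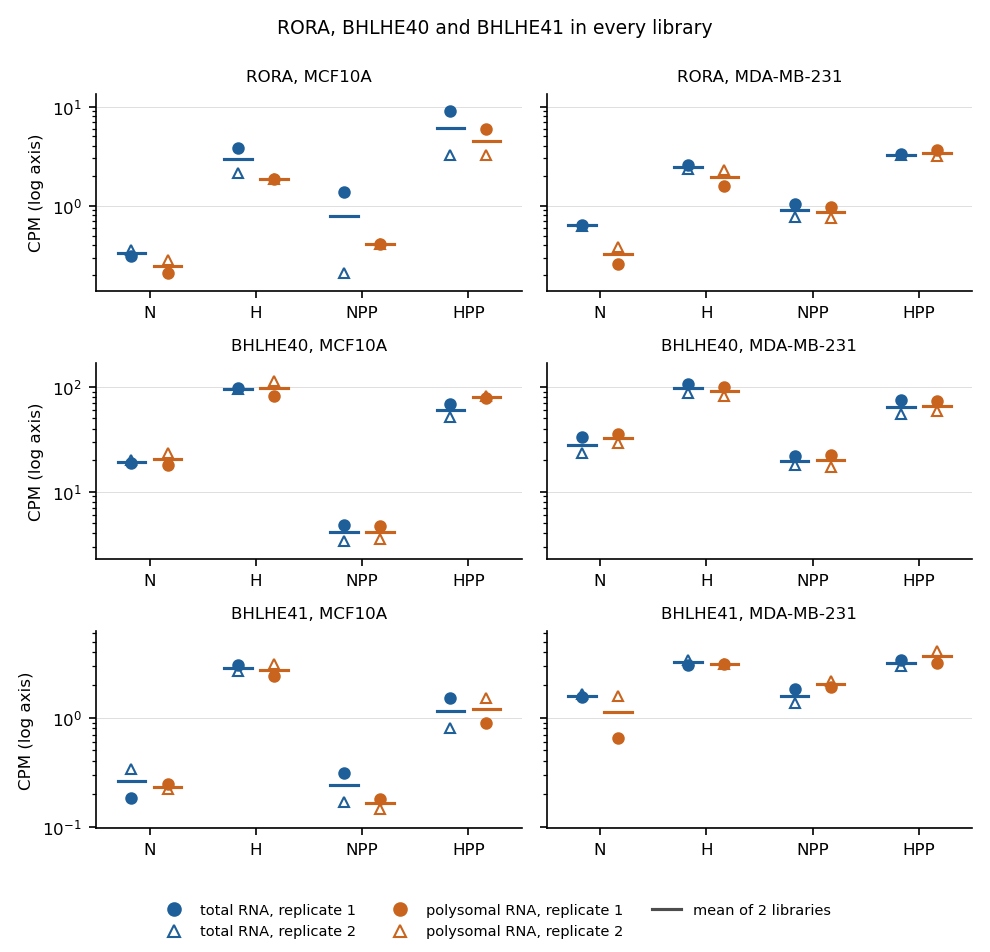
CPM (log axis) of RORA, BHLHE40 and BHLHE41 in N, H, NPP and HPP, with 1 point per library (blue, total RNA; orange, polysomal RNA; filled circles, replicate 1; open triangles, replicate 2) and lines at the mean of 2 libraries. H and HPP lie above N for the 3 genes in both lines, and BHLHE40 in MCF10A drops from 17.8 to 23.3 CPM in N to 3.39 to 4.78 CPM in NPP.

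PER1, PER2 and PER3 encode the period proteins, which hold back CLOCK and ARNTL together with the cryptochromes. PER3, at chr1:7784291-7845177 on the plus strand, fell in HPP in every line and fraction. In MCF10A it went from 1.72 and 1.69 CPM in N to 0.742 and 0.537 in HPP in total RNA, and from 1.43 and 1.42 to 0.555 and 0.474 in polysomal RNA. In MDA-MB-231 it went from 13.4 and 15.5 to 7.79 and 6.41 CPM in T, and from 10.4 and 14.4 to 8.31 and 6.17 in P. The groups did not overlap in any of the 4 comparisons. The log2FC was -1.41 ± 0.36 and -1.47 ± 0.36 in T and P of MCF10A (adjusted p = 0.0225 and 0.0143), and in those of MDA-MB-231 it was -1.02 ± 0.21 and -0.78 ± 0.21 (adjusted p = 0.00728 and 0.0193). In H and NPP its log2FC lay between -1.02 and -0.33 and was not called. In MCF10A T the call in HPP was lost without any of the 4 libraries compared, with a log2FC of -1.57 to -1.19. In MCF10A P it was lost without N replicate 1 or HPP replicate 2. In MDA-MB-231 it was lost without N replicate 2 or HPP replicate 2 in both fractions, and without N replicate 2 the log2FC in P was -0.52. UTS2, which shares 868 exon bases with PER3 on the other strand, reached at most 0.171 CPM.

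PER1, at chr17:8140472-8156506 on the minus strand, went the other way. In MCF10A polysomal RNA it was at 43.5 and 46.7 CPM in N, 47.4 and 65.3 in H, 37.0 and 32.8 in NPP, and 75.7 and 112.1 in HPP. In total RNA it was at 43.5 and 50.1 CPM in N, 79.1 and 58.6 in H, 33.6 and 38.0 in NPP, and 87.1 and 77.0 in HPP. In both fractions NPP was the lowest and HPP the highest group by its mean. It rose in HPP in P by a log2FC of 1.06 ± 0.26 (adjusted p = 0.0144), and in T the log2FC was 0.81 ± 0.26 (adjusted p = 0.0574, and 0.0287 with a replicate block within each fraction). The value in P was 0.75 without HPP replicate 2, no longer called, and 1.30 without HPP replicate 1, and the call was also lost without either N library. In MDA-MB-231 PER1 was at 6.84 to 16.3 CPM in all 16 libraries and was not called in the main fit. Its log2FC in HPP was 0.69 ± 0.32 in T (adjusted p = 0.169) and 0.57 ± 0.32 in P (adjusted p = 0.23). Both were called without the filter on low counts (adjusted p = 0.0157 and 0.0392) and with a replicate block within each fraction (adjusted p = 0.00797 and 0.0185).

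PER2, at chr2:238244044-238290102 on the minus strand, fell in HPP in MDA-MB-231. It was at 4.70 and 3.98 CPM in N, 4.24 and 3.33 in H, 2.59 and 2.08 in NPP, and 2.40 and 1.94 in HPP of total RNA. The polysomal libraries were at 2.92 and 3.29 CPM in N, 2.67 and 3.14 in H, 2.35 and 1.72 in NPP, and 1.84 and 1.41 in HPP. The libraries with PP242 lay below both N libraries in each fraction, with or without hypoxia. The log2FC in HPP was -0.9999 ± 0.25 in T (adjusted p = 0.0186) and -0.94 ± 0.26 in P (adjusted p = 0.0202), and in NPP it was -0.90 ± 0.25 in T (adjusted p = 0.16) and -0.61 ± 0.25 in P (adjusted p = 0.299). Both HPP calls were lost without any 1 of the 4 libraries compared, with a range of -1.11 to -0.79 for T and -1.15 to -0.76 for P. In MCF10A it was at 3.37 and 2.23 CPM in N and 1.70 and 0.806 in HPP of total RNA, with a log2FC of -1.15 ± 0.54 (adjusted p = 0.183). With a replicate block within each fraction this was called (adjusted p = 0.0206), as was PER2 in HPP against H (log2FC -1.58 in T, adjusted p = 0.0162).

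CRY1 and CRY2 encode the cryptochromes, the stronger inhibitors in the PER and CRY complex. CRY1, at chr12:106991364-107093549 on the minus strand, fell in HPP in MCF10A total RNA. It was at 28.4 and 26.0 CPM in N, 21.3 and 19.0 in H, 20.2 and 12.8 in NPP, and 11.3 and 9.67 in HPP. In polysomal RNA it was at 19.2 and 32.8 CPM in N and 15.5 and 19.8 in HPP, where the groups overlapped. The log2FC in HPP was -1.37 ± 0.32 in T (adjusted p = 0.015) and -0.56 ± 0.32 in P (adjusted p = 0.227). The call in T was lost without any 1 of the 4 libraries compared, with a log2FC of -1.44 to -1.26. In MDA-MB-231 CRY1 stayed between 61.7 and 111.3 CPM in all 16 libraries. The main fit did not call it against N, with a log2FC of -0.38 ± 0.13 in T in HPP (adjusted p = 0.0694). That value was called without TMM scaling (adjusted p = 0.0487) and with a replicate block within each fraction (adjusted p = 0.0475). CRY2, at chr11:45847118-45883248 on the plus strand, was at 2.93 to 11.2 CPM in both lines. Its log2FC ran from 0.19 to 0.96 in MCF10A and from -0.57 to 0.52 in MDA-MB-231, and the main fit called none. The highest, in HPP of MCF10A polysomal RNA, was called by DESeq2 (adjusted p = 0.0254) and with a replicate block within each fraction (adjusted p = 0.0237).

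NR1D1 and NR1D2 encode the nuclear receptors REV-ERBα and REV-ERBβ, which repress the genes that RORA activates. NR1D1, at chr17:40092793-40100589 on the minus strand, was at 10.6 and 11.0 CPM in N, 13.4 and 14.0 in H, 15.2 and 17.4 in NPP, and 19.2 and 16.9 in HPP of MDA-MB-231 total RNA. In polysomal RNA of that line it was at 10.1 and 8.17 CPM in N, 12.3 and 11.1 in H, 14.5 and 12.3 in NPP, and 15.4 and 14.0 in HPP. Every treated library lay above both N libraries. It rose in HPP by a log2FC of 0.74 ± 0.16 in T (adjusted p = 0.00928) and 0.69 ± 0.16 in P (adjusted p = 0.00963). In MCF10A it was at 7.83 and 5.90 CPM in N and 12.7 and 14.5 in HPP of T, and at 7.79 and 5.21 and then 9.77 and 16.5 CPM in P. The log2FC there was 0.99 ± 0.33 in T (adjusted p = 0.0645, and 0.0452 with a replicate block within each fraction) and 1.02 ± 0.33 in P (adjusted p = 0.0446). The MDA-MB-231 call was lost in T without either N library or HPP replicate 1, and in P without N replicate 2 or HPP replicate 1. The MCF10A call was kept in 6 of the 16 fits without 1 library, and the log2FC was 0.59 without HPP replicate 2 and 1.41 without N replicate 1. NR1D1 shares 473 exon bases with THRA on the other strand, and THRA was not called in any comparison of a treatment with N. NR1D2, at chr3:23945286-23980617 on the plus strand, ran from 64.9 to 142 CPM in MDA-MB-231 and from 2.99 to 16.1 CPM in MCF10A. The main fit did not call it against N, but some other fits called it in P in HPP of MDA-MB-231 (adjusted p = 0.017 without the filter on low counts).

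**Figure D3:**
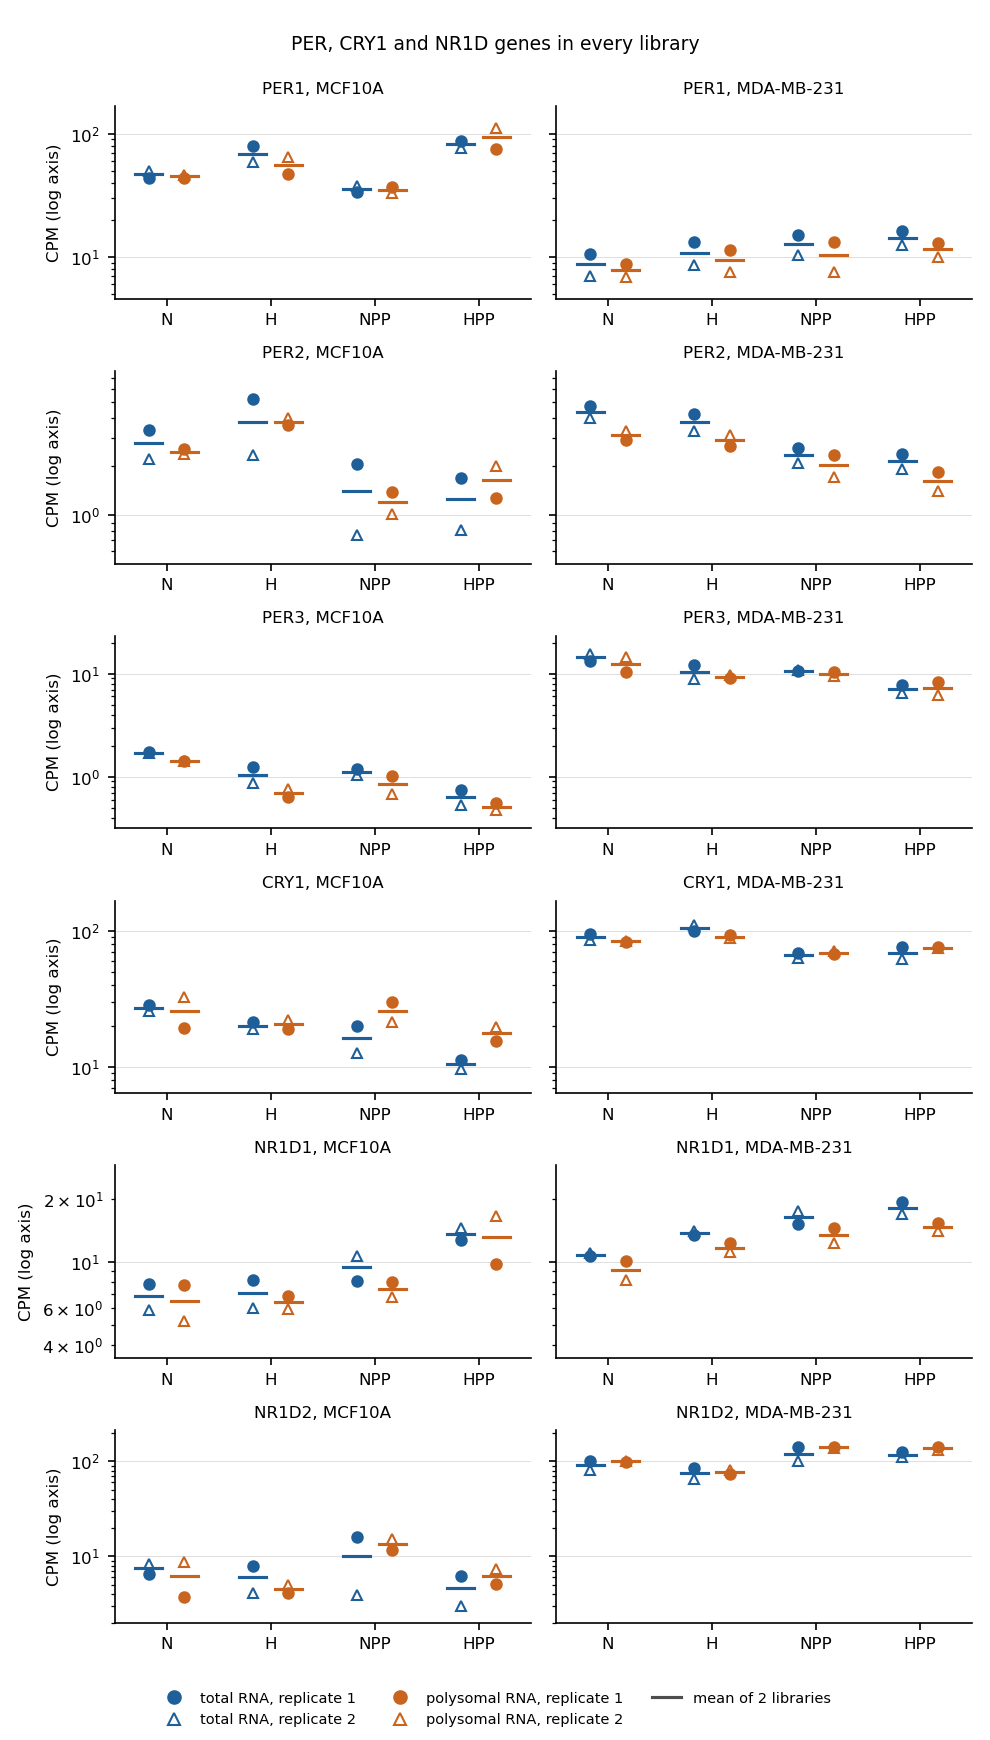
CPM (log axis) of the PER genes, CRY1 and the NR1D genes in each library of N, H, NPP and HPP, with colours and symbols for fraction and replicate as in the key and lines at the mean of 2 libraries. By their means PER3 is lowest and NR1D1 highest in HPP in both lines and fractions, and CRY1, PER3 and NR1D2 sit higher in MDA-MB-231 than in MCF10A while PER1 sits lower.

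No gene of the 10 passed the test for a change in translational efficiency. Translational efficiency (Te) was taken as the log2FC in P minus the log2FC in T and was tested in the same fit. edgeR called 0 of the 10 genes in H, NPP and HPP in either line, and DESeq2 also called 0. The share of all genes called was 0%, 0% and 0% in MCF10A, and 0.0148%, 0.34% and 0.696% in the other line, in the same order. None of the 10 reached an unadjusted p under 0.05, which 23, 296 and 433 of all MCF10A genes and 180, 295 and 454 of all MDA-MB-231 genes did. The lowest p of the 10 genes was that of RORA in MDA-MB-231 in HPP, where Te was 0.98 ± 0.46 (unadjusted p = 0.0515). Te of RORA was 0.62 ± 0.47 in H and 0.87 ± 0.49 in NPP in that line. In MCF10A the highest Te in NPP and HPP was that of CRY1, 0.71 ± 0.45 in NPP and 0.81 ± 0.45 in HPP. Te of BHLHE40 lay between -0.29 and -0.16 in MDA-MB-231 and between -0.09 and 0.34 in MCF10A, with an SE of 0.31 and 0.38.

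**Figure D4:**
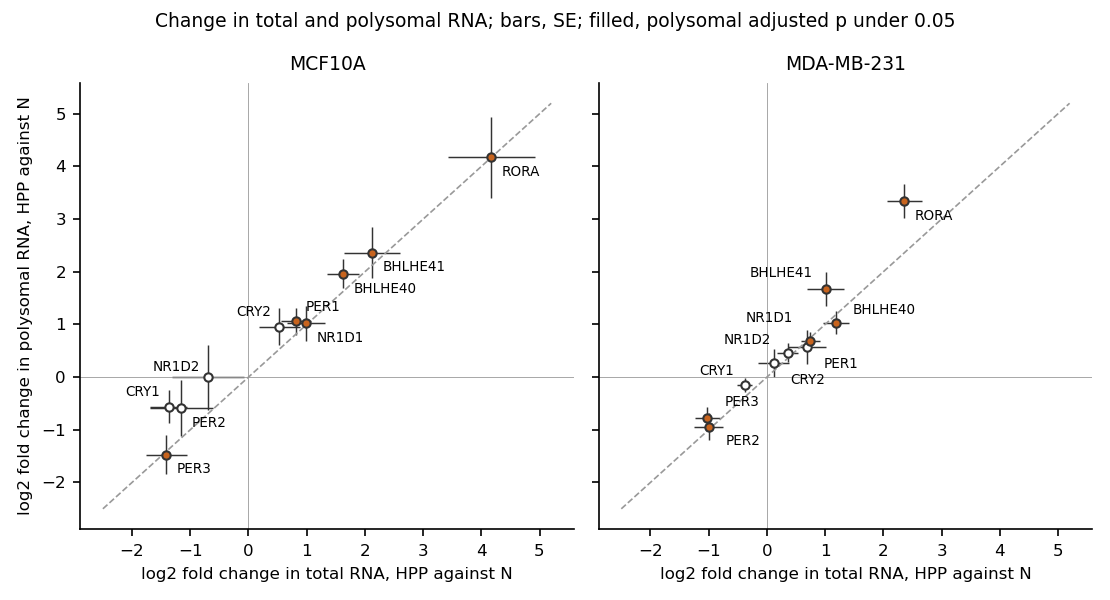
Log2 fold change of the 10 genes in HPP against N in total RNA (horizontal axis) and in polysomal RNA (vertical axis) for each line, with bars of 1 SE, points filled at an adjusted p under 0.05 in polysomal RNA and a dashed line where both are equal. Most points lie near the line, and RORA in MDA-MB-231, at 2.36 and 3.34, is the farthest above it.

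Hypoxia with PP242 was also set against hypoxia alone. In MCF10A edgeR called 0 of 10 genes in T and 0 in P, beside 3.74% and 6.5% of all genes, and DESeq2 called 1, NR1D1 in P. An unadjusted p under 0.05 was reached by 5 and 4 of the 10, beside 2078 and 2752 of all 13124 genes. By that measure MDA-MB-231 had 7 and 5 of the 10, beside 2500 and 3592 of 13510. In MDA-MB-231 CRY1 fell in T (log2FC -0.61 ± 0.13, adjusted p = 0.0219), which is 1 of 10 genes beside 3.78%. In P 2 of 10 genes were called beside 11.5%, NR1D2 up (log2FC 0.83 ± 0.18, adjusted p = 0.0084) and PER2 down (-0.84 ± 0.26, adjusted p = 0.0472). NR1D2 in T was not called, but it was with DESeq2 (log2FC 0.66, adjusted p = 0.0131), without the filter on low counts (0.00751) and with upper-quartile scaling (0.0471). In polysomal RNA NR1D2 was at 73.8 and 80.9 CPM in H and 142 and 133 in HPP, and the groups did not overlap. The call of CRY1 was lost without H replicate 2 or HPP replicate 2, where its log2FC was -0.41, and that of NR1D2 without either H library or HPP replicate 1. PER2 kept its call in 2 of the 16 fits without 1 library and in 3 of the 9 other fits. BHLHE40 had a log2FC of -0.69 ± 0.27 and -0.29 ± 0.27 in T and P of MCF10A and -0.59 ± 0.21 and -0.46 ± 0.21 in MDA-MB-231, none of them called by the main fit. With a replicate block within each fraction those of MDA-MB-231 were called (adjusted p = 0.0086 and 0.0123). RORA had 1.04 ± 0.64 and 1.28 ± 0.65 in T and P of MCF10A, then 0.43 ± 0.26 and 0.78 ± 0.26 in those of MDA-MB-231, also not called. Other fits gained calls in P of MDA-MB-231, for RORA and NR1D1 without TMM scaling (log2FC 0.94 and 0.50, adjusted p = 0.0415 and 0.0473) and for CRY2 without the filter (log2FC 0.84, adjusted p = 0.0159). In P of MCF10A NR1D1 was also called without TMM scaling (adjusted p = 0.0416).

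The responses of the lines were compared directly, as the log2FC in MDA-MB-231 minus that in MCF10A in a fit of all 32 libraries. edgeR called 0 of the 10 genes in each of the 6 comparisons. Over all 14298 genes tested, 0.266%, 0.056% and 3.31% were called in T in H, NPP and HPP, and 0.329%, 0.126% and 3.6% in P. An unadjusted p under 0.05 was reached by 2 of the 10 in each comparison but HPP in P, where it was 1. Over all 14298 genes it was reached by 1068, 591 and 2200 in T in H, NPP and HPP, and by 928, 629 and 2392 in P. DESeq2 called 3 values of the 10 genes in all. These 3 were BHLHE41 in H in T and BHLHE40 in NPP in T and in P. For BHLHE40 in NPP the difference was 1.79 ± 0.38 in T (edgeR adjusted p = 0.127, DESeq2 0.00532) and 1.67 ± 0.38 in P (edgeR adjusted p = 0.113, DESeq2 0.00408). For BHLHE41 in H it was -2.37 ± 0.56 in T (edgeR adjusted p = 0.0913, DESeq2 0.0116) and -2.20 ± 0.58 in P (edgeR adjusted p = 0.145). With a replicate block within each fraction of each line edgeR called 5 values. These were BHLHE41 in H in T (adjusted p = 0.044) and BHLHE40 in NPP in T and P (adjusted p = 0.00863 and 0.0116). The others were BHLHE40 in HPP in P (difference -0.96, adjusted p = 0.0333) and CRY1 in HPP in T (adjusted p = 0.0475). Without the block the difference of CRY1 in HPP in T was 1.08 ± 0.35 (adjusted p = 0.101). For RORA it was -1.14 ± 0.77 in H and -1.70 ± 0.76 in HPP in T (adjusted p = 0.91 and 0.281).

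The lines were also compared in normoxic total RNA, where 5 of 10 genes were called beside 40.7% of all genes, a share close to that of all genes. BHLHE41, PER3, CRY1 and NR1D2 were higher in MDA-MB-231, by a log2 difference of 2.11 ± 0.43, 2.61 ± 0.26, 1.26 ± 0.25 and 3.16 ± 0.50 (adjusted p = 0.000462, 4.11e-08, 0.000314 and 2.71e-05). PER1, an acute target of the glucocorticoid receptor, was lower in MDA-MB-231 by a log2 difference of -2.86 ± 0.34 (adjusted p = 7.78e-07). The part of the hydrocortisone in the MCF10A medium was not tested. All 5 calls were kept in the 32 fits without 1 library and in the 6 other fits. RORA (0.45 ± 0.60), BHLHE40 (0.08 ± 0.26), PER2 (0.17 ± 0.40), CRY2 (-0.20 ± 0.31) and NR1D1 (0.19 ± 0.25) were not called.

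Levels per kilobase of exon (CPM per kb of merged GENCODE v44 exons, normoxic total RNA) put the genes of a line in order. In MCF10A this was RORA at 0.0232, BHLHE41 at 0.0795, PER3 at 0.247, PER2 at 0.465, CRY2 at 0.994, NR1D2 at 1.52, NR1D1 at 3.07, BHLHE40 at 6.48, CRY1 at 6.69 and PER1 at 7.87. BHLHE40 and CRY1 overlapped between their libraries, and the other neighbours in this order did not. In MDA-MB-231 it was RORA at 0.0318, BHLHE41 at 0.353, PER2 at 0.523, CRY2 at 0.862, PER1 at 1.08, PER3 at 1.51, NR1D1 at 3.50, BHLHE40 at 6.85, NR1D2 at 13.6 and CRY1 at 16.1. There CRY2 overlapped PER1, and NR1D2 overlapped CRY1. RORA was thus the lowest of the 10 in both lines, though its merged exons of 17023 bases hold more than any 1 transcript and lower its value.

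**Figure D5:**
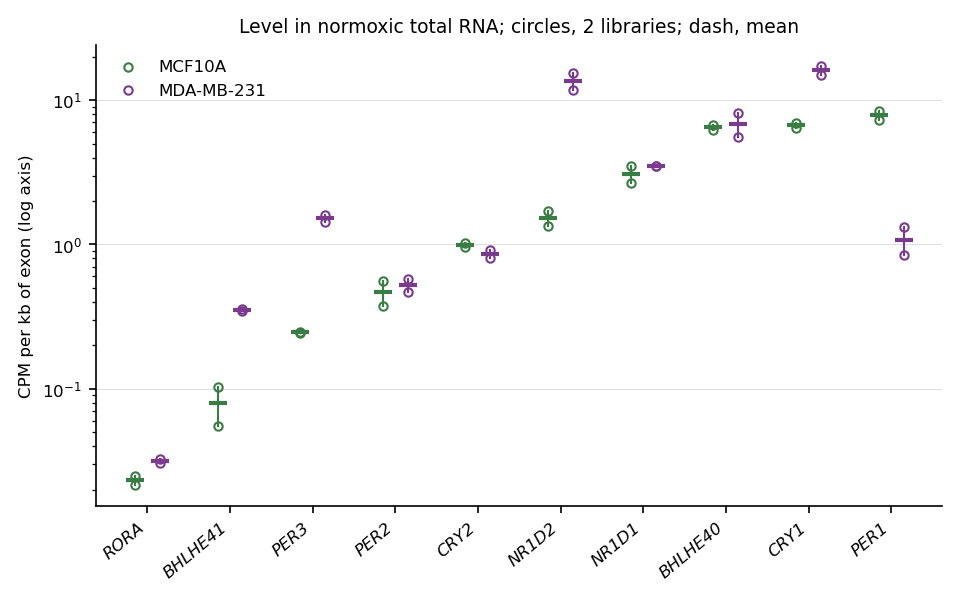
CPM per kb of exon (log axis) of the 10 genes in normoxic total RNA, with circles for the 2 libraries of each line and a dash for their mean. RORA is lowest in both lines, PER1 is 7.87 in MCF10A and 1.08 in MDA-MB-231, and NR1D2 is 1.52 and 13.6.

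Other genes of the clock were taken as a fixed list of 20 protein-coding genes, of which 18 were tested in each line. CIART, a repressor that acts on CLOCK and ARNTL, rose in hypoxia in MCF10A. It was at 2.01 and 1.98 CPM in N, 13.7 and 13.8 in H, 1.01 and 1.21 in NPP, and 11.2 and 9.20 in HPP of total RNA. In polysomal RNA it was at 3.60 and 1.60 CPM in N, 20.3 and 15.5 in H, 0.543 and 0.531 in NPP, and 15.2 and 9.54 in HPP. It rose in H by a log2FC of 2.78 ± 0.38 in T (adjusted p = 0.00333) and fell in NPP in P by 2.26 (adjusted p = 0.0259). In MDA-MB-231 it rose in P in H, by a log2FC of 2.27 ± 0.45 (adjusted p = 0.0166), and in HPP, by 2.12 ± 0.45 (adjusted p = 0.00523).

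CIART was the 1 gene of the 18 called in H, in both fractions of MCF10A and in P of MDA-MB-231, and the 1 called in NPP, in P of MCF10A. The shares of all tested genes called there were 1.54%, 1.49% and 2.29% in H and 0.823% in NPP. In HPP 5 of the 18 were called in T and 5 in P of MCF10A, beside 14.9% and 22.2% of all genes, and 3 and 3 in MDA-MB-231, beside 13.2% and 19.4%. Among the genes reported here, DBP, NFIL3 and CIART rose and TIMELESS fell in T in HPP of MCF10A, and NFIL3 and CIART rose and TIPIN fell in P. In HPP of MDA-MB-231 RORB and DBP rose and TIPIN fell in T, and CIART rose and TIPIN fell in P. DBP is an output activator of the clock, and NFIL3 is a repressor at the same D-box elements. The activators CLOCK, ARNTL, ARNTL2, NPAS2 and TEF were not called in a comparison with N in either line.

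By the correlation of log2 CPM over the 16 libraries of a line, the gene most like RORA was TCAF2 in both, with r = 0.959 in MCF10A and 0.971 in MDA-MB-231. It was followed by ICAM5, INSIG2, PPP1R3B and PRDM1 in MCF10A, and by KDM3A, RHOU, PPFIA4 and SPNS2 in MDA-MB-231. The genes most like BHLHE40 were SUSD4 (r = 0.979), PLPP3, CIART (r = 0.953), IGFBP3 and PFKFB4 in MCF10A, and in the other line FUT11 (r = 0.966), C3orf58, LDHA, VLDLR and EGLN3. The points share the treatments, so this is a description of shared profiles with no test.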

How the data were processed

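The 32 RNA-Seq libraries are 2 of each line, fraction and treatment. Per the study's methods, the authors aligned the reads with STAR 2.5.1b to GRCh38 and quantified genes of GENCODE 24 with RSEM 1.2.28, whereas the submitters' processing notes name GRCh37. The deposited tables hold no coordinates, and those printed come from the reference annotation of GRCh38. The deposited values are RSEM's expected counts, not normalized and already in whole numbers. Expected counts share reads of near-identical or overlapping genes by estimate.

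Protein-coding genes that passed edgeR's filterByExpr were scaled by TMM and tested with edgeR 4.0.16 (quasi-likelihood F test, R 4.3.3, limma 3.58.1). Each line was fitted as 8 groups of 2 libraries, and the lines were compared in a joint fit. Benjamini-Hochberg adjustment ran over all genes tested in a contrast. CPM uses TMM-scaled library sizes. Correlations used log2 CPM with a prior count of 2. Steps were tested on simulated data. The labels call the replicates biological, and p-values measure the spread between these libraries.

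The genes, the list of other clock genes, the markers and the alternatives were chosen with earlier results of these data known. Named were all 10 genes, the called genes of the clock list and the 5 genes most like RORA and BHLHE40. Some called genes of the clock list are not reported here. Alternatives were DESeq2 1.42.0, other scalings and filters, all gene classes, only the libraries compared, a threshold of 0.1, replicate blocks and leaving out each library. Deviations from the group means of same-numbered libraries correlated over 0.1 in all 6 pairs of conditions in MCF10A total RNA (0.28 to 0.78), but in 3 of 6 in its polysomal RNA and 4 of 6 in each fraction of MDA-MB-231. Blocked values are therefore given beside MCF10A total RNA results whose call they change, and beside some results of the other libraries.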

Additional observations from a re-analysis of the deposited data

Results flagged for a closer look

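NFIL3, a repressor at D-box elements, responded less to hypoxia with PP242 in MDA-MB-231 than in MCF10A, in a direct test of the difference between the lines. In MCF10A total RNA it was at 9.50 and 10.6 CPM in N and 30.3 and 52.8 in HPP, and in MDA-MB-231 at 18.7 and 25.5 and then 30.2 and 22.8 CPM. The log2FC in MDA-MB-231 minus that in MCF10A was -1.70 ± 0.44 in T (edgeR, adjusted p = 0.0356) and -1.79 ± 0.44 in P (adjusted p = 0.026). NFIL3 was the 1 gene of the 20 on the clock list called there in T and in P, beside 3.31% and 3.6% of all 14298 genes. Other fits and fits without 1 library were run for the 10 genes only, not for NFIL3. In HPP the log2FC was 2.04 and 2.12 in T and P of MCF10A, both called, and 0.27 and 0.37 in MDA-MB-231, neither called. The medium differed between the lines, and its part was not tested.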

How the results depend on the processing

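No call of the 10 genes reversed under any alternative. Calls against N were 8 in total and 9 in polysomal RNA in each line. With only the libraries compared in the fit, those of MCF10A polysomal RNA were 4. Without 1 library they ran from 1 (N replicate 1 of total RNA) to 11 in MCF10A T, from 5 (HPP replicate 2 of polysomal RNA) to 11 in MCF10A P, from 2 (N replicate 2 of total RNA) to 8 in MDA-MB-231 T and from 4 (N replicate 2 of polysomal RNA) to 9 in MDA-MB-231 P. For HPP against H, MCF10A had 0 calls, 1 at an adjusted p under 0.1, 1 with DESeq2, 1 without TMM and 0 without any 1 library. MDA-MB-231 had 3, 7 at an adjusted p under 0.1, 1 with only the libraries compared and 1 to 3 without 1 library. The line responses had 0 calls, 1 at an adjusted p under 0.1, 3 with DESeq2 and 0 to 2 without 1 library. Te had 0 in every fit.

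With a replicate block in 1 term, calls were 9 in T and 9 in P of MCF10A, 9 and 12 in MDA-MB-231, and 9 for HPP against H in MDA-MB-231. The line responses were blocked only within each fraction of each line and had 5 calls. With a replicate block within each fraction the calls against N were 12, 11, 11 and 14. Those of HPP against H were then 2 in MCF10A and 8 in the other line. Against N this block gained in MDA-MB-231 BHLHE40 (adjusted p = 0.00367), NR1D1 and NR1D2 in NPP in P, PER1 and NR1D2 in HPP in T and P and CRY1 in HPP in T, and against H it gained BHLHE40 in T and P, NR1D2 and PER2 in T and RORA in P. The cause of these shifts was not tested. With a lone library left in a group, it was assumed to vary like the other groups. Of the 248 values not called, 93 changed sign under at least 1 alternative, so no direction is read from them. RORA and BHLHE41 rest on low counts, which limits their precision.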
